A study of Mus musculus with 13 samples.

Results

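The genes described here are 10 members of the oncostatin M and gp130 cytokine axis, taken by name from the 23211 genes of a mouse RNA count matrix. They are the cytokines Osm, Lif, Il6 and Il11, the receptor genes Osmr, Lifr, Il6ra, Il11ra1 and Il6st, and the feedback inhibitor Socs3. All 10 were in the matrix. The set was chosen by the fibrous to bone difference of Osm in these same counts, so the members' values in that contrast are given as a description and support nothing.

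RNA came from cells of mouse tissue around tibia implants, sorted by flow cytometry as lineage-negative and positive for the leptin receptor, a surface marker of marrow stromal cells. The 6 bone libraries came from bone around Pressfit implants, and the 7 fibrous libraries from fibrous tissue around PMMA implants. The labels give no strain, genotype, age or time after implantation. Nor do the labels say whether libraries came from separate or pooled animals, so a p-value here reflects spread among libraries that could be technical.

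The library names form a series ending in L002 (4 bone, 5 fibrous) and a series named XY9274 (2 bone, 2 fibrous). Within L002, 5 names hold the token plus (bone 1, bone 2, fibrous 2, fibrous 3 and fibrous 4), 3 hold Lin (bone 3, bone 4 and fibrous 5) and 1 (fibrous 1) holds neither. The labels do not say what Lin stands for, and all libraries carry the label LepR+. Total counts ran from 16162321 to 44302166 per library. Lepr, the gene of the sort marker, was under 5 counts per 1000000 (CPM, with library totals scaled by TMM factors) in bone 3, bone 4, bone 5, fibrous 1 and fibrous 5, and between 46.7 and 804 CPM in the other 8 libraries. The defining marker of the sort was thus close to absent from 5 libraries. Members' fibrous to bone differences are also given without them. All 3 Lin-named libraries are among the 5, so no Lin to plus comparison could be made without them.

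Cytokines of this family act through receptor complexes that share gp130, the signal-transducing chain encoded by Il6st. Oncostatin M binds gp130 paired with the chain encoded by Osmr, and has also been reported to act through the Lifr chain. Leukaemia inhibitory factor (Lif) binds gp130 with the Lifr chain, while interleukin 6 and interleukin 11 first bind their own alpha receptors, Il6ra and Il11ra1. The complexes activate JAK kinases and the transcription factor STAT3. Socs3 is induced by STAT3, binds gp130 and damps the signal. In bone, oncostatin M is known as a product of myeloid and T cells that acts on osteoblasts and marrow stromal cells.

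Osm was the only cytokine of the 4 with counts in all 13 libraries. Osm (ENSMUSG00000058755, mm10 chromosome 11, 4236420 to 4241026, plus strand) lies next to Lif on the same strand (chromosome 11, 4257557 to 4272514), with 16530 bases between them. Over the 6 bone libraries Osm had a lowest level of 16.95 CPM (bone 1), a median of 80.4 and a highest of 278.5 CPM (bone 5). Over the 7 fibrous libraries the lowest level was 3.53 CPM (fibrous 3), the median 24.0 and the highest 54.3 CPM (fibrous 6). The groups overlapped, since bone 1 and bone 6 lay below the highest fibrous library, while the 4 highest libraries of all were bone libraries.

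Levels of Osm ran with those of neutrophil genes and, less evenly, with those of other leukocyte genes. The list of 10 neutrophil markers, among them the calprotectin genes S100a8 and S100a9 and the granule genes Ngp and Ltf, summed to between 655.8 and 91350 CPM per library. Bone 5, highest in Osm, was also highest in this sum. The 6 libraries highest in Osm were the 6 highest in neutrophil markers, and 9 of 13 libraries held the same rank in both. Within the XY9274 series all 4 ranks were the same, and within L002 no library moved by more than 1 rank. The summed pan-leukocyte markers gave the same results within each series. Over all 13 libraries their sum shared 5 of the 6 highest libraries and 4 ranks with Osm. For the monocyte and macrophage sum these numbers were 4 and 3. The pairing of Osm with the neutrophil list was chosen after the values were seen.

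**Figure D1:**
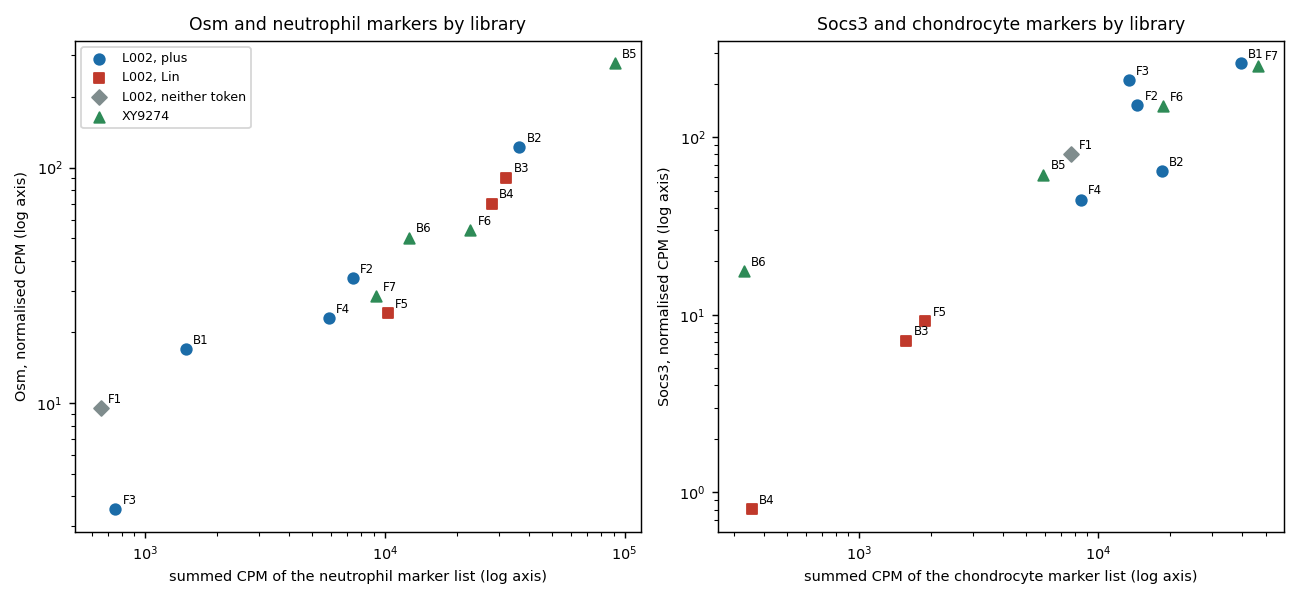
Left, Osm in normalised CPM against the summed CPM of 10 neutrophil markers; right, Socs3 against the summed CPM of 6 chondrocyte markers; both axes are logarithmic, each point is 1 library (B bone, F fibrous), and colours and shapes give the name class. Osm rises from 3.53 CPM in F3 to 278.5 CPM in B5 along with the neutrophil sum, and Socs3 is lowest in B4, B3 and F5, the 3 Lin-named libraries.

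The genes most like Osm across libraries were myeloid genes. By Pearson r of log2 CPM over all 13 libraries, among 9550 genes with a mean of at least 5 CPM, the highest were Ly6c2, a monocyte surface antigen (r = 0.971), Spi1, which encodes the myeloid transcription factor PU.1 (r = 0.962), Trem3, a myeloid receptor (r = 0.960), Ncf4, a subunit of the phagocyte oxidase (r = 0.956), and Pglyrp1, a peptidoglycan recognition protein of neutrophil granules (r = 0.954). These points share their libraries and differ in depth, so the coefficients describe the libraries only. In bulk RNA, fewer cells of a type and less RNA per cell cannot be told apart. Monocyte and macrophage genes were present beside the neutrophil genes, and the sum of 10 such markers ran from 37.2 to 1980 CPM. The sum was uneven. Ly6c2 reached 1029, Cd14 409, Csf1r 227 and Cd68 73.2 CPM, while C1qa was at most at 6.88 and Mrc1 at 5.25 CPM. Mrc1 was at 0 counts in 8 libraries and Adgre1 at 0 in 4. T cell markers were close to absent, with Cd3e at 0 counts in 10 and Cd3g in 11 of 13 libraries. The part of these cells in the Osm level was not tested.

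Lif, Il6 and Il11 were each absent from most libraries. Il6 (chromosome 5, 30013114 to 30019981) had 0 counts in 8 of 13 libraries. It reached 20.1 CPM in bone 5, 9.40 in fibrous 7, 8.05 in fibrous 6 and 2.07 in fibrous 1, and 0.207 CPM (5 counts) in bone 2. Of its 4 levels above 1 CPM, 3 were thus in the XY9274 series. A library at 0 still allows up to 3 counts, between 0.0918 CPM in bone 6 and 0.301 CPM in bone 4 for Il6, by counting error alone.

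Lif also had 0 counts in 8 libraries. Its other values were 3.05 CPM in fibrous 3, 2.34 in bone 5, 1.39 in fibrous 7, 1.08 in fibrous 2 and 1.04 in bone 6. Il11 (chromosome 7, 4772373 to 4782859), a cytokine of mesenchymal cells, had 0 counts in 7 libraries. Bone 1 held 20.5 CPM of Il11 and fibrous 6 held 4.94, while the other 4 libraries with any count lay at or under 0.643 CPM. Bone 1 and fibrous 6 were also among the 3 libraries highest in chondrocyte markers, at 39420 and 18620 summed CPM beside 46580 in fibrous 7. Fibrous 7, however, held only 0.470 CPM of Il11. Bone 2, at 18420 summed CPM of the markers, held 0 counts of Il11. This pairing was noticed in the data and was not tested. Because so few libraries held Lif, Il6 or Il11, none of these 3 cytokines passed the filter on low counts in any of the 4 main fits. Outside Lin against plus, that filter grouped libraries by tissue, also in the fit between name series. These 3 cytokines have no test.

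**Figure D2:**
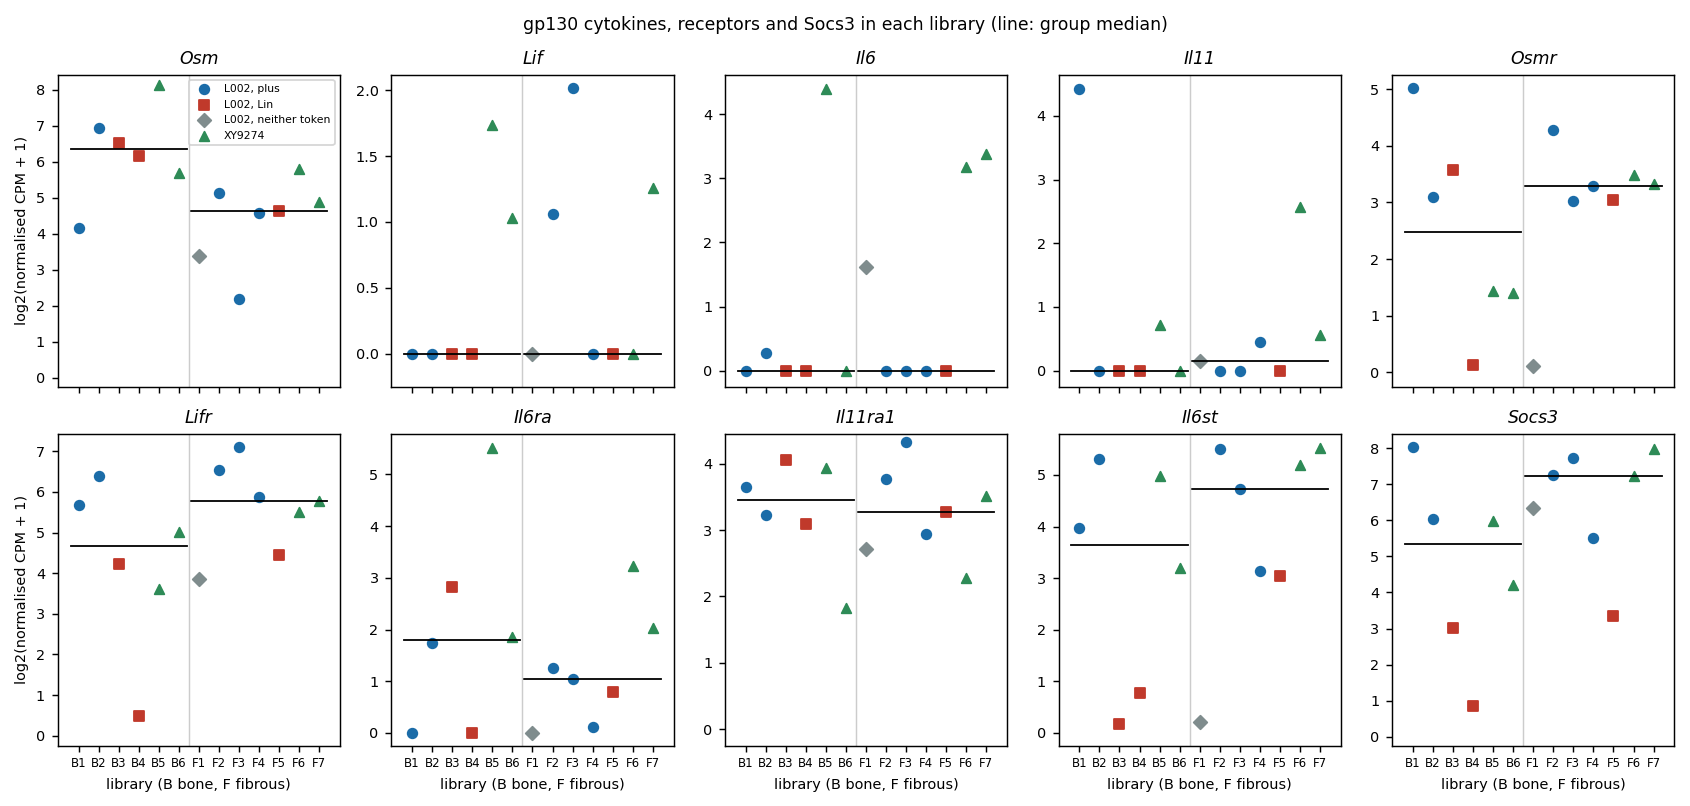
Each panel plots 1 gene as log2(normalised CPM + 1) in the 6 bone (B) and 7 fibrous (F) libraries; colours and shapes give the name class and black lines the group medians. Osm and Il11ra1 are above 0 throughout, Lif, Il6 and Il11 lie at 0 in most libraries, and the red Lin-named libraries are low for Il6st, Lifr and Socs3.

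Among the receptors, Lifr and Il6st had the largest log2 fold changes between Lin-named and plus-named libraries. Lifr (chromosome 15, 7090614 to 7197489, plus strand) had a median of 24.5 CPM over bone libraries (lowest 0.401 in bone 4, highest 82.6 in bone 2) and of 53.4 over fibrous libraries (lowest 13.5 in fibrous 1, highest 136 in fibrous 3). Il6st (chromosome 13, 112464070 to 112510086, plus strand) had a median of 11.4 CPM in bone and 25.4 in fibrous libraries. It was nearly missing from 3 libraries, with 2 counts in bone 3, 7 in bone 4 and 4 in fibrous 1, against 45.2 CPM in fibrous 7. The low libraries for Il6st were thus all among the 5 that were low in Lepr. Bone 5, also low in Lepr, held 30.4 CPM of Il6st.

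Osmr (chromosome 15, 6813577 to 6874969, minus strand), which lies 215644 bases from Lifr, had a median of 4.61 CPM in bone and 8.73 in fibrous libraries. It was at 1 count in bone 4 and 2 in fibrous 1, and highest at 31.3 CPM in bone 1. The fibrous libraries other than fibrous 1 lay between 7.13 and 18.5 CPM, within the bone range. The genes most like Osmr by the same rule were Vwa1, an extracellular matrix protein gene (r = 0.962), Arpin, an inhibitor of the Arp2/3 complex (r = 0.934), Ephx1, an epoxide hydrolase (r = 0.925), Farp2 (r = 0.906) and Xxylt1 (r = 0.865). For Xxylt1 the rank correlation was 0.374.

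Il6ra (chromosome 3, 89864059 to 89913196, minus strand), the alpha receptor of interleukin 6, was highest in bone 5 at 44.6 CPM, followed by fibrous 6 at 8.32. It had 0 counts in bone 1, bone 4 and fibrous 1. An antisense gene, Gm42809, shares 242 exon bases with Il6ra, and with the strand setting unknown its reads could be counted for either. Il11ra1 (chromosome 4, 41699989 to 41769474, plus strand), the alpha receptor of interleukin 11, had counts in every library, between 2.54 CPM in bone 6 and 19.1 in fibrous 3. Mice carry near-identical copies of this gene, among them Il11ra2, which was not in the matrix, so its counts are uncertain.

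Socs3 (chromosome 11, 117966079 to 117970047, minus strand) ranged from 0.803 CPM in bone 4 to 262 CPM in bone 1. Its median was 39.6 CPM over bone and 149 CPM over fibrous libraries, and the groups overlapped. Fibrous 5 (9.17 CPM), bone 3 (7.15) and bone 4, the libraries named Lin, were the lowest 3 of all 13. Chondrocyte markers summed to 1896, 1579 and 358 CPM in those 3 libraries and bone 6, the next lowest in Socs3 at 17.6 CPM, held 331 CPM of them. The other 9 libraries held between 5891 and 46580 CPM. The part of these markers in the Socs3 level was not tested, and this pairing too was chosen after the values were seen. The genes most like Socs3 were Sdc3, a heparan sulfate proteoglycan of the cell surface (r = 0.975), Tcf4 (r = 0.969), Col11a2, a cartilage collagen chain (r = 0.966), Nfic (r = 0.956) and Loxl2, a lysyl oxidase (r = 0.953). Those most like Il6st were Tef (r = 0.975), H2-Q6 (r = 0.952), a class I gene with close copies whose counts are uncertain, the metalloproteinase gene Adam9 (r = 0.951), Sh3bp2 (r = 0.946) and Armh3 (r = 0.946).

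Levels of different members can be compared only per length. On the scale of CPM per kilobase of exon, the medians over 13 libraries ran from Socs3 (22.3) and Osm (14.9) to Lifr (4.11), Il11ra1 (1.93), Il6st (1.32), Osmr (0.619) and Il6ra (0.161), with Lif, Il6 and Il11 at 0. The means of Socs3 and Osm were 34.9 ± 32.6 and 27.3 ± 32.3 (SD, n = 13), and those of Lifr, Il11ra1, Il6st, Osmr and Il6ra were 4.36 ± 3.57, 2.18 ± 1.07, 1.79 ± 1.56, 0.725 ± 0.701 and 0.626 ± 1.39. No 2 neighbours among these 7 had means further apart than the larger of their SDs. In every library the ligand Osm had more CPM per kilobase than its receptor Osmr. Where Osmr had more than 3 counts (11 libraries), the ratio ran from 2.64 in fibrous 3 and 2.89 in bone 1 to 163 in bone 6 and 866 in bone 5.

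Promoters of Socs3 and Il6st are shown because Socs3 and Il6st had the largest differences in level between Lin-named and plus-named libraries among the tested members. The sequences are RefSeq's (GRCm38.p6), from 250 bases before to 50 bases after the start site, and 9 of the 10 members had an entry. Osm had none. Capitals mark the STAT motif TTCNNNGAA, which reads the same on both strands in its fixed letters.

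Socs3 (chr11:117969317-117969616, minus strand): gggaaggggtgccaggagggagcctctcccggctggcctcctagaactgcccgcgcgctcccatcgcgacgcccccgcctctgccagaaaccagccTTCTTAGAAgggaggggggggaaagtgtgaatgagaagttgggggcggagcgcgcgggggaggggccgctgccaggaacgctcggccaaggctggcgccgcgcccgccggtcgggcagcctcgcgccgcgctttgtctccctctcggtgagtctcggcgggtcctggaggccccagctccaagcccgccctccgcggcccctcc

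Il6st (chr13:112463820-112464119, plus strand): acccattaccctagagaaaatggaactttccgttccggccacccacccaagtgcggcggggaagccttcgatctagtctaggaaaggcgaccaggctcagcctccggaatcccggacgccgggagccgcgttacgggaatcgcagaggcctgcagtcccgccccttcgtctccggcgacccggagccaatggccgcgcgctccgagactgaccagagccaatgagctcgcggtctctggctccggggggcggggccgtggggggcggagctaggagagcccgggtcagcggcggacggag

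The Socs3 promoter held 1 match, TTCTTAGAA, whose last base lies 146 bases before the start site. The other 11 promoter windows of the members held none. Of 32851 windows of the same length in the RefSeq table, 8.3% held the motif. A match of these letters is a description of the sequence and does not show that STAT3 binds there.

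Within the L002 series the feedback inhibitor Socs3 was lower in the Lin-named than in the plus-named libraries. Socs3 was at 262, 64.5, 152, 210 and 44.4 CPM in the plus-named bone 1, bone 2, fibrous 2, fibrous 3 and fibrous 4, and at 7.15, 0.803 and 9.17 CPM in the Lin-named bone 3, bone 4 and fibrous 5. All 3 Lin-named libraries lay below all 5 plus-named ones. By edgeR, with tissue as a term, Socs3 fell by 4.69 on the log2 scale (SE 1.00, n = 3 and 5; adjusted p = 0.0352). Of the 7 members that passed the filter on low counts it was the only one called, where 8.16% of the 13450 genes tested were called in either direction and 5.00% were lower in Lin-named libraries. The call rests on few libraries: the adjusted p by edgeR was 0.0611, 0.0521, 0.1002 and 0.0768 without bone 1, 2, 3 or 4, and 0.0718, 0.0769 and 0.0634 without fibrous 2, 3 or 5, and it stayed past the threshold only without fibrous 4 (0.0314). By limma-voom it was 0.220, and with fibrous 1 counted as plus-named 0.0507 by edgeR. Of 16 alternative fits in all, Socs3 passed in 6, DESeq2 among them, and did not pass in 10.

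The shared receptor chain lay in the same direction without passing the threshold. Il6st was at 14.7, 38.8, 44.5, 25.4 and 7.75 CPM in the same 5 plus-named libraries and at 0.129, 0.702 and 7.20 CPM in the Lin-named ones. The groups did not overlap, but fibrous 4 and fibrous 5 lay close together at 7.75 and 7.20 CPM (log2 fold change -3.76, SE 1.25; adjusted p = 0.106 by edgeR). Without fibrous 5 it was -6.06 and passed (adjusted p = 0.0482 by edgeR). Lifr, the receptor chain for Lif, was at 49.9, 82.6, 91.6, 136 and 57.5 CPM against 17.6, 0.401 and 20.9 CPM, also with no overlap (log2 fold change -2.59, SE 0.94; adjusted p = 0.127 by edgeR). DESeq2 called both genes (adjusted p = 0.00172 for Il6st and 0.0110 for Lifr), beside 3456 of all 13450 tested genes in either direction. Socs3, Il6st and Lifr were the 3 members with every Lin-named library below every plus-named one, an arrangement that 13.3% of all tested genes showed.

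Osm, Osmr, Il6ra and Il11ra1 overlapped between the 2 name classes. Osm was at 16.95, 122, 33.9, 3.53 and 22.9 CPM in the plus-named and at 90.7, 70.1 and 24.0 CPM in the Lin-named libraries (log2 fold change 0.22, SE 0.79; adjusted p = 0.884 by edgeR). Its sign turned without bone 1 (-0.16). Osmr had a log2 fold change of -1.31 (SE 1.19; adjusted p = 0.521 by edgeR), with the Lin-named libraries at 10.95, 0.1003 and 7.26 CPM and the plus-named ones between 7.13 and 31.3 CPM. Il6ra had 0.76 (SE 2.16) and turned to -1.61 without bone 3. Il11ra1 had -0.13 (SE 0.62), with a sign that turned without bone 4, fibrous 3 or fibrous 5 (0.0558, 0.0471 and 0.22). Failing the threshold does not show that these 4 genes were alike in the 2 classes.

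**Figure D3:**
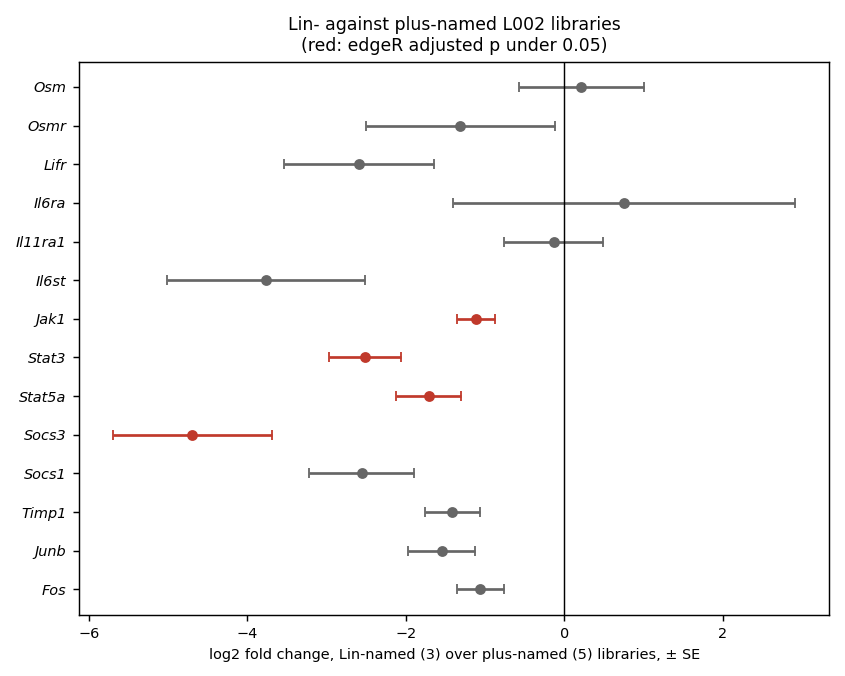
Log2 fold change of the 3 Lin-named over the 5 plus-named L002 libraries with its SE by edgeR, for members and for JAK-STAT genes and STAT3 targets named by rule; red marks an adjusted p under 0.05. Socs3 (-4.69), Stat3 (-2.52), Stat5a (-1.71) and Jak1 (-1.11) are red, and Osm (0.22) sits beside 0. Saa3, a STAT3 target named by the same rule, is not plotted. Its log2 fold change was -7.61 (adjusted p = 0.0354 by edgeR).

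Of 15 genes of JAK-STAT signalling, all tested, 3 fell in the Lin-named libraries and 12 did not pass, where 5.00% of all tested genes fell. Stat3, the main transcription factor downstream of gp130, was between 31.9 and 111 CPM in plus-named and between 5.32 and 21.05 CPM in Lin-named libraries (log2 fold change -2.52, SE 0.46; adjusted p = 0.0251 by edgeR). Jak1, the kinase bound to gp130, fell by 1.11 (SE 0.24; adjusted p = 0.0352 by edgeR), from a median of 196 to 70.8 CPM. Stat5a, a related transcription factor, fell by 1.71 (SE 0.41; adjusted p = 0.0454 by edgeR). Socs1, a relative of Socs3, had -2.56 (SE 0.66; adjusted p = 0.0558 by edgeR). The list's median was -1.29 beside -0.21 over all tested genes. Stat3 did not pass by edgeR without bone 3, bone 4, fibrous 2 or fibrous 3 (adjusted p = 0.0794, 0.0761, 0.0577 and 0.0630), Jak1 passed only without fibrous 5 (0.0327; others 0.0554 to 0.1355) and Stat5a passed in none of the 8 fits with 1 library left out (0.0567 to 0.1345). By limma-voom none of the 3 passed (adjusted p = 0.0975 for Stat3, 0.0777 for Jak1 and 0.210 for Stat5a), nor by edgeR with fibrous 1 counted as plus-named (0.0713, 0.0560 and 0.0629). DESeq2 called 7 of the 15 genes lower and 0 higher, beside 3456 of all 13450 tested genes in either direction.

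Among 18 known STAT3 targets 1 fell and 17 did not pass by edgeR. That share is near the 5.00% of all tested genes that fell, so the edgeR count is no result about the targets. DESeq2 called 8 of the 18 lower and 1 higher, beside 3456 of all 13450 tested genes in either direction. The gene that fell by edgeR was Saa3, an acute-phase serum amyloid gene. It was at 0.568 to 11.5 CPM in plus-named libraries and at 0, 0 and 0.1003 CPM in Lin-named ones (adjusted p = 0.0354 by edgeR). Leaving out any library but fibrous 4 (0.0471) moved it above the threshold (0.0554 to 0.0944). Timp1, a metalloproteinase inhibitor, had a log2 fold change of -1.41 (SE 0.35; adjusted p = 0.0507 by edgeR), Junb -1.55 (SE 0.42; 0.0656) and Fos -1.06 (SE 0.30; 0.0713). Without fibrous 4 Timp1 passed (adjusted p = 0.0384 by edgeR). The median was -1.48. None of the 6 tested of 11 other gp130 ligands and receptors passed by edgeR, and their median was -1.37. Ctf1, which encodes cardiotrophin 1, was between 0.0414 and 12.3 CPM in plus-named and at most 0.123 CPM in Lin-named libraries. Cntfr, the receptor for ciliary neurotrophic factor, was at most at 4.57 CPM in plus-named and 0.1003 CPM in Lin-named libraries.

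Cell type markers moved along the same division. Marrow stromal markers summed to between 892 and 11420 CPM in plus-named and to between 15.3 and 26.96 CPM in Lin-named libraries, and 6 of 10 fell by edgeR. All 6 chondrocyte markers and 5 of 7 osteoblast markers fell, while all 6 erythroid markers rose (beside 3.15% of all tested genes), from sums of 27250 to 74130 CPM to sums of 233600 to 591700 CPM. These sums are scaled by the TMM factors. As a share of unscaled counts the erythroid markers held 2.97% to 7.96% in plus-named and 21.0% to 36.5% in Lin-named libraries. Of the lymphocyte markers, 1 of the 4 tested rose, the B cell receptor gene Cd79a (adjusted p = 0.0396 by edgeR), which passed in none of the 8 fits with 1 library left out (0.0506 to 0.1601) and not by limma-voom (0.0774). These marker counts rested on single libraries as well. With 1 library left out, between 3 and 6 marrow stromal, 1 and 5 osteoblast and 0 and 6 chondrocyte markers fell, and between 0 and 6 erythroid markers rose by edgeR. No chondrocyte marker passed without bone 3 or without fibrous 3, and no erythroid marker without bone 2, bone 3, bone 4 or fibrous 3. The marrow stromal count was 0 by limma-voom and with fibrous 1 counted as plus-named. Neutrophil markers had sums of 753.5 to 36370 and of 10320 to 32180 CPM, and 0 of 10 passed, as did 0 of 6 pan-leukocyte, 0 of 9 monocyte and macrophage, 0 of 3 megakaryocyte, 0 of 3 mast cell and basophil and 0 of 1 endothelial markers tested. The part of these markers in the Socs3, Stat3 and receptor differences was not tested.

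Fibrous against bone is the comparison the series was made for, and the one from which Osm was taken, so its values for the members carry no test. Osm averaged 25.2 ± 16.6 CPM (SD) over the 7 fibrous and 105 ± 92.3 CPM over the 6 bone libraries, a log2 fold change of -2.00 (SE 0.57). It was -2.04 (SE 0.68) in the L002 and -2.07 (SE 0.97) in the XY9274 series, and -1.27 (SE 0.85) without the 5 libraries low in Lepr. Neutrophil markers, which ran with Osm above, had a median sum of 7369 CPM over fibrous and of 30055 CPM over bone libraries, and all 10 had a log2 fold change below 0. All 6 pan-leukocyte markers and 8 of the 9 tested monocyte and macrophage markers were below 0 as well. The part of these markers in the Osm difference was not tested.

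The receptors and Socs3 had smaller or less even differences between the tissues. Fibrous libraries averaged 59.6 ± 42.5 CPM of Lifr where bone averaged 32.2 ± 30.1 CPM (log2 fold change 0.90, SE 0.80). For Il6st the means were 23.7 ± 18.8 and 15.5 ± 15.96 CPM (0.55, SE 1.11), and for Socs3 128 ± 88.1 and 68.9 ± 98.4 CPM (0.86, SE 1.03). Without bone 1 the Socs3 difference was 2.14 (SE 0.95), and without other single libraries it lay between 0.54 and 1.09. Il6st ran from 0.0647 without fibrous 2 to 1.43 without bone 2, and Lifr from 0.59 without fibrous 3 to 1.38 without bone 2. Without the 5 libraries low in Lepr the differences were 0.60 for Lifr, 0.69 for Il6st and 0.69 for Socs3. Each of the 3 all-library differences in means was smaller than the SD within fibrous libraries. Osmr had 0.26 (SE 1.13), with -0.62 in L002 and 2.45 in XY9274, where fibrous 6 and fibrous 7 held 10.2 and 9.04 CPM and bone 5 and bone 6 held 1.72 and 1.65 CPM. It was 1.10 without bone 1, between -0.09 and -0.01 without bone 4, bone 5, bone 6 or fibrous 2, and 0.11 without the 5 libraries low in Lepr. Socs3 had 0.22 in L002 and 2.26 in XY9274. Il6ra had -1.79 (SE 1.35), -0.93 without bone 3, -1.19 without bone 5, and 0.12 without the 5 libraries low in Lepr. Il11ra1 had -0.0957 (SE 0.51), a value whose sign turned without bone 5 (0.27) or fibrous 6 (0.0447), and 0.76 without those 5 libraries. By edgeR 0% of the 13294 genes tested were called in this contrast (636 at an unadjusted p under 0.05, limma-voom 0, DESeq2 169). Of the 7 tested members edgeR called 0 and DESeq2 1, Osm, which this contrast chose, so nothing is read from either count. None of the 15 JAK-STAT genes, 17 tested STAT3 targets or 6 tested other gp130 ligands and receptors passed by edgeR, and their median log2 fold changes were 0.29, 0.0998 and 0.20 beside 0.0263 over all genes.

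**Figure D4:**
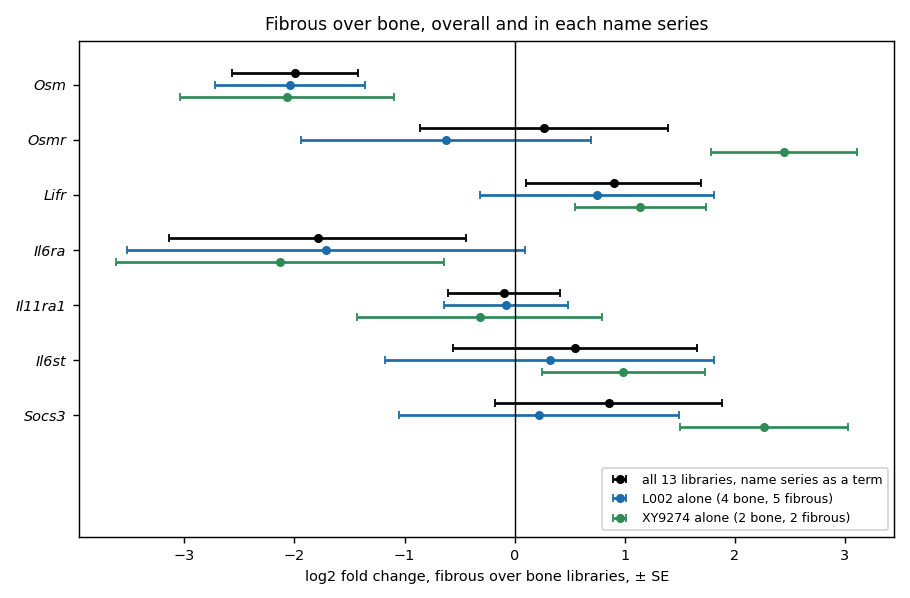
Log2 fold change of fibrous over bone libraries with its SE by edgeR, for the 7 members that passed the filter on low counts, over all 13 libraries (black), in L002 alone (blue) and in XY9274 alone (green). Osm lies near -2 in all 3 fits, while Osmr is at -0.62 in L002 and 2.45 in XY9274.

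The difference between fibrous and bone was tested for a difference between the name series, and 0 of the 7 tested members passed by edgeR, where 0% of all genes did (292 at an unadjusted p under 0.05, limma-voom 0, DESeq2 25). For Osmr the term was 3.10 (SE 2.26) and for Socs3 2.10 (SE 2.16). Between the series themselves, with tissue as a term, 2.16% of the 13294 genes were called and 0 of the 7 members. Osm had a log2 fold change of XY9274 over L002 of 1.14 (SE 0.58; adjusted p = 0.264 by edgeR). Il6ra had 3.30 (SE 1.37, adjusted p = 0.182 by edgeR), at 2.63 to 44.6 CPM in XY9274 and 0 to 6.06 CPM in L002. By limma-voom Il6ra was called higher (adjusted p = 0.0206), beside 2946 of all 13294 genes in either direction. Of the 15 JAK-STAT genes 3 rose in XY9274 by edgeR, where 1.89% of all tested genes rose, namely the kinase gene Jak2 (1.94, SE 0.45; adjusted p = 0.0469), the transcription factor gene Stat5b (1.76, SE 0.31; 0.0128) and the adaptor gene Grb2 (1.15, SE 0.27; 0.0469). With 1 library left out, Stat5b did not pass without bone 5 (adjusted p = 0.0549 by edgeR) and passed in the other 12 fits. Jak2 passed only without bone 1 or fibrous 1 (0.0417 and 0.0280; others 0.0534 to 0.1585) and Grb2 only without bone 6 (0.0290; others 0.0518 to 0.2281). Leukocyte markers lay in the same direction without passing by edgeR: all 10 neutrophil (median log2 fold change 1.87) and all 6 pan-leukocyte markers (1.69) were above 0, as were the 3 tested mast cell and basophil markers (6.57), and all 6 erythroid markers were below 0 (-2.83). Their part in the series difference was not tested. XY9274 libraries were also deeper, at 30286397 to 44302166 counts against 16162321 to 29600792 in L002.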

How the data were processed

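RNA counts of 13 libraries (6 bone, 7 fibrous) were analysed. The authors deposited raw counts per Ensembl gene in 1 matrix. Builds mm10 and hg38 and the tool edgeR are named, without their roles, in the submitters' processing notes. How reads were aligned and counted, and whether strand was used, is not given in the sources at hand. All 23211 gene IDs matched a symbol, and coordinates and exon lengths come from GENCODE M21 (mm10).

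The members, gene lists and tests were chosen with earlier results of these data known. Tests used edgeR 4.0.16 in R 4.3.3 (TMM factors, filterByExpr, robust quasi-likelihood F test). Benjamini-Hochberg adjustment ran over all tested genes, with a threshold of 0.05. For Lin against plus, filterByExpr took the compared name classes as its groups. In the other main fits, that between name series included, its groups were bone and fibrous. Name series was a term for fibrous against bone, and tissue for Lin against plus. SE is the log2 fold change over the square root of F. Alternatives were limma-voom with sample weights (limma 3.58.1) and DESeq2 1.42.0. Normalised CPM uses the TMM factors, which run from 0.617 to 1.21. Intervals and floors cover counting error only. The code was tested on simulated counts. Replicate numbers follow accession order and pair nothing.

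Named genes were the 10 members, the 5 genes most alike to Osm, Osmr, Il6st and Socs3, and up to 4 genes per list by smallest p in Lin against plus. For marker lists the text gives counts and sums in place of most of those genes, and 1 gene of the pathway lists is not reported here. Other genes at 0 counts were chosen after their values were seen. So were the pairings of Osm with neutrophil markers and of Socs3 and Il11 with chondrocyte markers.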

Additional observations from a re-analysis of the deposited data

Results flagged for a closer look

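Within each tissue, 20 sets of values (10 members in 2 tissues) were searched for a library far from the rest, by the gap to its nearest neighbour over the whole range. Chance flags about 1 in 20 such sets where values are normally distributed, which was not tested here and does not hold for sets that are mostly 0 counts. A library was set apart in 7 sets.

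Bone 1 stood above the other bone libraries in 3 genes: Osmr at 31.3 CPM (next 10.95), Il11 at 20.5 CPM (next 0.643) and Socs3 at 262 CPM (next 64.5). Bone 1 also held the highest chondrocyte marker sum of the bone libraries, 39420 CPM. Bone 5 stood above the others in Il6 at 20.1 CPM (next 0.207) and in Il6ra at 44.6 CPM (next 6.06), and held the highest neutrophil sum of all libraries, 91350 CPM. Fibrous 6 stood above the other fibrous libraries in Il6ra at 8.32 CPM (next 3.08) and in Il11 at 4.94 CPM (next 0.47). No library was set apart in Osm, Il6st, Lif, Lifr or Il11ra1 by this measure.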

How the results depend on the processing

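Counts of called genes moved with the tool and the libraries. For fibrous against bone 0 genes passed, and DESeq2 called 169. For Lin against plus 1097 passed by edgeR, with 3456 by DESeq2, 629 by limma-voom and 354 with fibrous 1 counted as plus-named. With 1 library left out the count ran from 138 to 992 (368, 470, 144 and 144 without bone 1 to 4, 264 and 138 without fibrous 2 and 3). For XY9274 against L002 it was 287, with 1982 by DESeq2, 2946 by limma-voom, 32 when the 5 Lepr-low libraries were dropped (this alternative was added once the data had been seen) and 87 to 470 with 1 library left out (over 1.5 times from 287 without bone 1, 3, 4 or 5 or fibrous 2, 3, 6 or 7). For the series by tissue term it was 0, with 25 by DESeq2 and 1 without those 5 libraries. The cause was not tested.

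No paired analysis was possible for fibrous against bone because replicate numbers follow accession order. With a replicate block for the identifier that a Lin and a plus name share (4 in bone, A in fibrous), 0 genes passed for Lin against plus (2095 at an unadjusted p under 0.05), with Socs3 at -4.99 (adjusted p = 0.138 by edgeR). Signs turned there for Osm (-0.66), Il6ra (-3.14) and Cntfr (0.34). Residuals of libraries sharing an identifier correlated at -0.147 and -0.376. These residuals sum to 0 within each tissue and within each name class, so the values do not tell whether libraries were paired. The labels do not say that an identifier marks a shared animal. Il11ra1 turned to 0.00985 with fibrous 1 counted as plus-named. With 1 library left out Osm ran from -0.16 to 1.18, Il6ra from -1.61 to 3.21 and Il11ra1 from -0.50 to 0.22. The Socs3 difference kept its sign in all 16 alternatives (-5.33 to -3.95). Without TMM factors Osm in bone 4 was 43.2 in place of 70.1 CPM.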

Other observations

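The 3 libraries with the highest Il6, bone 5, fibrous 7 and fibrous 6 (20.1, 9.40 and 8.05 CPM), were the 3 with the highest sum of mast cell and basophil markers (Cpa3, Mcpt8, Fcer1a and Prss34), at 1468, 477 and 374 CPM. Bone 3 followed with 136 CPM of those markers and 0 counts of Il6. The remaining libraries held at most 9.43 CPM of the markers. This was noticed in the data and was not tested.

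Fibrous 1, whose name holds neither token, combined 80.3 CPM of Socs3 and 2.07 CPM of Il6 with 4 counts of Il6st, 2 counts of Osmr and 0.469 CPM of Lepr. Its neutrophil marker sum, 655.8 CPM, was the lowest of all libraries, and its Osm level of 9.49 CPM was the second lowest after fibrous 3.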
